A study of Mus musculus with 18 samples.

Results

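Macrophage chemokines were followed as a list of 10 genes, Ccl2, Ccl3, Ccl4, Ccl5, Ccl7, Ccl9, Ccl22, Cxcl2, Cxcl10 and Cxcl16, chosen by name as chemokine ligands. Of these 10, 9 were in the table of 11243 genes, and Ccl22 was not analysed here. The data are counts from the mouse macrophage line RAW264.7, in which mRNA was sequenced from whole lysates (total mRNA) and from the heavy polysome fractions of the same lysates, those with many ribosomes per mRNA. The study asked how activated phagocytes enlarge their endosomes and lysosomes, and whether translation driven by the kinase mTOR is needed for this. As one part of it, these libraries followed changes in total and polysome mRNA with LPS and their dependence on mTOR. Control cells received vehicle (DMSO), LPS cells received 500 ng/mL of bacterial lipopolysaccharide for 6 h, and LPS plus torin1 cells were treated with torin1, which blocks mTOR, at 100 nM from 15 min before the same 6 h of LPS. Each of the 3 treatments was repeated in 3 independent experiments, which gave 9 lysates and 18 libraries, and none of these libraries came from cells given torin1 without LPS. Total libraries held 27.8 M to 38.2 M counts and polysome libraries 34.9 M to 47.7 M. The p-values measure the spread between the 3 independent experiments in this line.

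Chemokines are small secreted proteins that guide leukocytes along concentration gradients by binding G protein-coupled receptors on the migrating cells. Macrophages are a main source of them in inflamed tissue, where Toll-like receptor signals acting through NF-kB and through interferon switch on their genes. The CC members of the list draw mainly monocytes, macrophages and T cells, Cxcl2 draws neutrophils, and Cxcl10 draws activated T cells.

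The cells carried the markers of their label. All 10 macrophage markers were measured, among them Adgre1, Csf1r, Itgam and Cd68, and their summed level was 12739, 13841 and 13301 CPM (counts scaled to library size by TMM) in total mRNA of control cells. It was 15002, 15340.5 and 16329 CPM with LPS and 14259, 15402 and 15895 CPM with LPS plus torin1, with Lyz2 the most abundant. In polysome mRNA the sums were 20143, 18583 and 19348 CPM, 23185, 19370.3 and 23051 CPM and 20791, 17065 and 18919 CPM, with overlap between all groups. The LPS sums thus all lay above the control sums in total mRNA only. This order rests on TMM, whose factors ran from 1.15 to 1.18 in control and from 0.875 to 0.927 in LPS total libraries. It does not hold on library totals, nor when Cd14, also among the 10 markers, is left out of the sums. Of the 10 markers 7 were called higher and 1 lower with LPS in total mRNA, and 4 higher and 3 lower with torin1. Among all genes 32.2% were called higher and 34.3% lower with LPS, and 27.3% higher and 26.4% lower with torin1. With LPS, Fcgr1 (2.44), Itgam (2.14) and Mpeg1 (1.29) were higher and Csf1r (−0.93) was lower on the log2 scale. With torin1, Fcgr1 (−2.87) and Csf1r (−0.55) were lower and Mpeg1 (1.24) was higher than with LPS alone. The table holds only genes counted at least 1 time in every library, so absence from it does not show that a marker was silent. None of 7 lymphocyte markers was in the table. Of 5 neutrophil markers only S100a8 was, and of 12 stromal and epithelial markers only Cdh5, which stayed at or below 1.45 CPM in every library and was called higher with LPS (0.87 in total and 1.88 in polysome mRNA) and lower with torin1 in total mRNA (−1.09). S100a8, a calcium-binding protein also made by activated macrophages, stood at 0.274, 0.114 and 0.235 CPM in control, 5.91, 2.10 and 3.65 CPM with LPS and 1.25, 1.62 and 3.63 CPM with LPS plus torin1 in total mRNA. In polysome mRNA it stood at 0.2502, 0.408 and 0.415 CPM, 7.74, 5.04 and 4.73 CPM and 3.34, 3.29 and 4.97 CPM. S100a8 was called higher with LPS (4.24 and 4.01) and lower with torin1 (−0.84 and −0.57) in total and polysome mRNA. S100a8 and Cdh5 thus moved with LPS like the chemokines and with torin1 like those that fell, and their part in these changes was not tested. In such bulk libraries a smaller share of responding cells and less mRNA in each cell cannot be told apart.

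The 9 measured members lie on 2 chromosomes of the mouse genome (GRCm38). The 6 measured CC genes fall within 1629 kb of chromosome 11, with Ccl7 8.26 kb downstream of Ccl2 (chr11:82035571-82037453) and Ccl4 13.2 kb from Ccl3 (chr11:83647844-83649355) on the other strand. Cxcl16 (chr11:70453983-70459984) is on the same chromosome outside that cluster, and Cxcl2 (chr5:90903871-90905938) and Cxcl10 (chr5:92346638-92348889) are 1.44 Mb apart on chromosome 5. Ccl2, Cxcl10 and Cxcl16 overlap protein-coding genes on the opposite strand, and how strands were counted is not spelled out in the sources used here. Of stretches of 50 bases in their annotated transcripts, 16.9% of those of Cxcl16 recur in Zmynd15, 3.59% of those of Cxcl10 in Art3, 5.84% of those of Cxcl2 in Cxcl3, which was not in the table, and 1.97% of those of Ccl9 recur in other genes. Counts of these members are uncertain where reads fall in such stretches, and the share of reads concerned was not measured. Ccl2, Ccl3, Ccl4, Ccl5 and Ccl7 shared no such stretch with another gene.

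Promoters of 4 measured members were held in the RefSeq table (GRCm38.p6), from 250 bases before to 50 after the annotated start, and all 4 are shown, as genes that rose together with LPS. Capitals mark matches on either strand to 4 short motifs: GGNNNTTCC (kappaB-type), GAAANNGAA (ISRE-type, the interferon-stimulated response element), TGANTCA (AP-1-type) and TATAAA. The promoters run 5′ to 3′ at chr5:92348840-92349139 (minus strand) for Cxcl10, chr5:90903649-90903948 (plus strand) for Cxcl2, chr11:83649329-83649628 (minus strand) for Ccl3 and chr11:83578587-83578886 (minus strand) for Ccl9.
Cxcl10: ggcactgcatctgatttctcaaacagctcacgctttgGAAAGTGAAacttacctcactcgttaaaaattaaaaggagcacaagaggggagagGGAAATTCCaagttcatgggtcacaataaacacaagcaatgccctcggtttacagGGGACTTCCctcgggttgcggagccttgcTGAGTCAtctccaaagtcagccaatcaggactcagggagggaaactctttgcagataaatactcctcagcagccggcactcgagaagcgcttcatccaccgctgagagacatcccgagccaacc
Cxcl2: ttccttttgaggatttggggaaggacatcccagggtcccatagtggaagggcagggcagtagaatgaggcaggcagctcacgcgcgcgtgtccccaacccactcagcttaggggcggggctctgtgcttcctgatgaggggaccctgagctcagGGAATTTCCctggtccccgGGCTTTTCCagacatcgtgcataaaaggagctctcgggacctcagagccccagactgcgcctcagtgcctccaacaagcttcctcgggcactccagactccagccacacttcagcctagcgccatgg
Ccl3: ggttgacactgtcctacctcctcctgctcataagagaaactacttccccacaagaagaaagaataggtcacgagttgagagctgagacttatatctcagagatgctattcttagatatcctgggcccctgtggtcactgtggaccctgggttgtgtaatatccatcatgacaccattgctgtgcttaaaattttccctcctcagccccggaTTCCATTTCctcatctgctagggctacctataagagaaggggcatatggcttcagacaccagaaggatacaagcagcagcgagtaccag
Ccl9: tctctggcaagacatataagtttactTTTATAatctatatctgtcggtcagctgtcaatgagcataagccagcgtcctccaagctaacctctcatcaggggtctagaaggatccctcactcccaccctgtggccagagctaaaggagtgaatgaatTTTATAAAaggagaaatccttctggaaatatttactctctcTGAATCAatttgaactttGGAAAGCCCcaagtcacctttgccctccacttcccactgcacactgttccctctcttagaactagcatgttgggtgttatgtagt

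In the Cxcl10 promoter the kappaB-type motif matched at 2 places and the ISRE-type and AP-1-type motifs at 1 place each. The Cxcl2 promoter held the kappaB-type motif at 2 places and none of the other motifs. Ccl3 had 1 ISRE-type match, and Ccl9 had 1 kappaB-type, 1 AP-1-type and 3 TATAAA matches, 2 of which overlap each other. No match to one motif overlapped a match to another in these promoters. Of 32851 promoters in the table, 18.5% held the kappaB-type motif, 8.56% the ISRE-type, 7.81% the AP-1-type and 13.6% TATAAA. A match describes the letters of the window and was not tied to binding by any measurement here.

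LPS raised all 9 measured chemokines in total mRNA and all 9 in polysome mRNA (edgeR, FDR 0.25), and each was also called at an FDR of 0.05. Among all genes, 32.2% were called higher and 34.3% lower in total mRNA, and 26.4% higher and 28.7% lower in polysome mRNA. The members' median log2 fold change was 5.22 in total and 5.36 in polysome mRNA, against −0.018 and −0.031 over all genes. For all 9 members the 3 LPS libraries lay above the 3 control libraries in both RNA types, as for 25.6% of all genes in total and 22.1% in polysome mRNA. Together the 9 genes took up 0.127% ± 0.0210 of the counts of total libraries in control cells (mean ± SD, n = 3), 1.72% ± 0.182 with LPS and 1.83% ± 0.131 with LPS plus torin1. In polysome libraries the shares were 0.181% ± 0.0296, 2.63% ± 0.261 and 2.73% ± 0.0605. Scaling mattered for the weaker changes. With library totals in place of TMM, the median of all genes moved by −0.37 in total and −0.35 in polysome mRNA, and higher calls made up 19.8% and 20.1% of all calls in place of 48.4% and 47.9%. All members except Cxcl16 in total mRNA were still called higher on that scale.

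**Figure D1:**
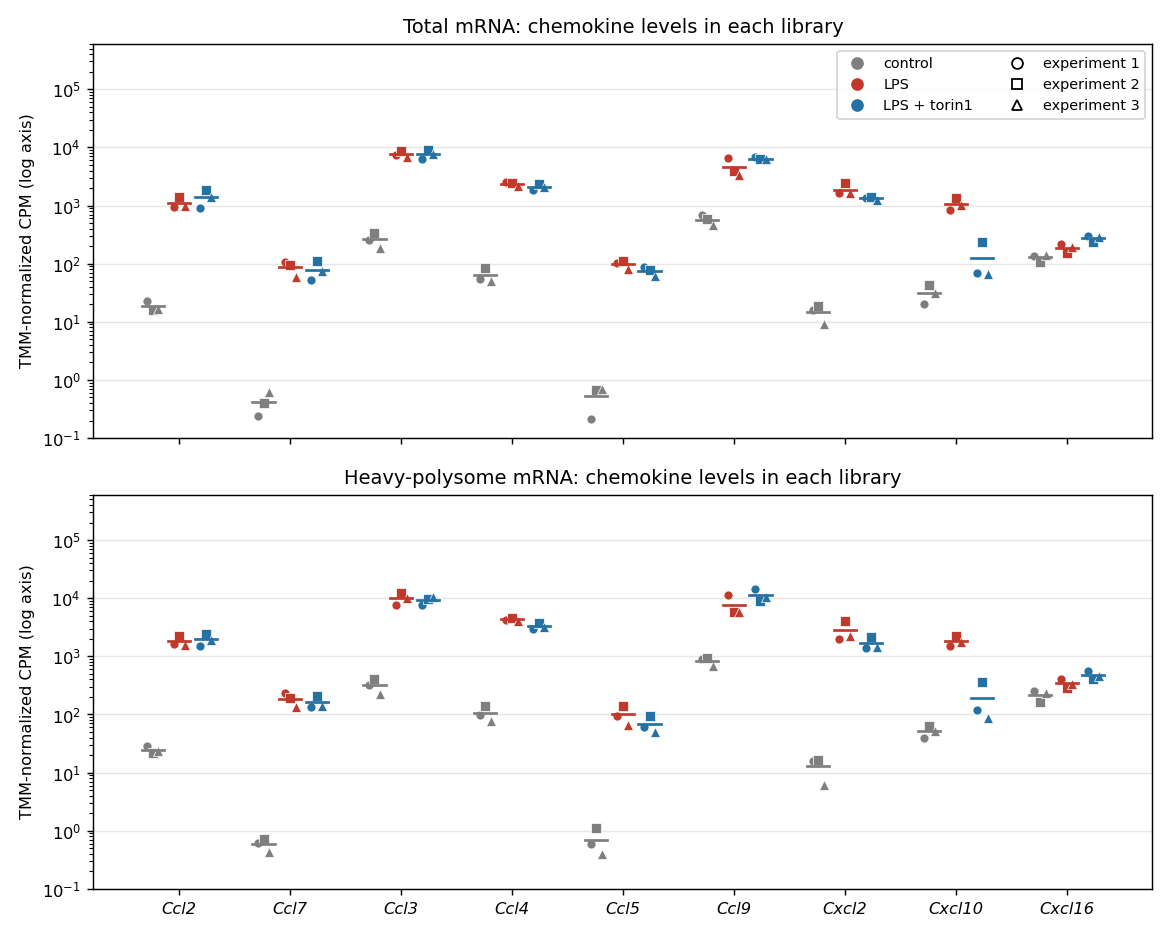
TMM-normalized CPM (log axis) of the 9 measured chemokines in every library of total mRNA (top) and heavy-polysome mRNA (bottom), with a bar at the mean of 3 experiments and a symbol for each experiment. LPS libraries lie above control libraries for each gene, and for Cxcl10 the LPS plus torin1 libraries fall back to between 66.2 and 235 CPM in total mRNA.

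Torin1 together with LPS split the list. Against LPS alone, 2 of 9 members were higher and 3 lower in total mRNA, and 2 were higher and 2 lower in polysome mRNA. Leaving out 1 experiment changed these counts and those of all genes, as given in the last section. Among all genes the shares called were 27.3% higher and 26.4% lower in total mRNA and 20.3% higher and 18.2% lower in polysome mRNA, so the members' counts were near the background. What stood out was the size of the change of Cxcl10, which was rank 18 from the lowest of 11243 genes in total mRNA and rank 12 in polysome mRNA. The members' median was −0.15 in total and −0.18 in polysome mRNA, against 0.0012 and −0.00035 over all genes. LPS plus torin1 groups did not overlap the LPS groups for 3 members in total mRNA (Cxcl2, Cxcl10 and Cxcl16) and for 2 in polysome mRNA (Ccl4 and Cxcl10). Over all genes such groups lay apart upward for 22.2% and downward for 19.8% in total mRNA, and for 15.8% and 16.8% in polysome mRNA. Of the members, 1 lay apart upward and 2 downward in total mRNA and 2 downward in polysome mRNA, which is not far from these shares. Within experiments, 2 members were higher and 4 lower with torin1 in all 3 experiments, in both RNA types. The same share over all genes is not given here. With the experiment as a block, Ccl4 and Ccl5 were also called lower in polysome mRNA. At an FDR of 0.05 and without the block, 2 calls were left in total mRNA, Cxcl10 and Cxcl16, and 1 in polysome mRNA, Cxcl10. This comparison shares its LPS libraries with that of LPS and control, so they are not independent.

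**Figure D2:**
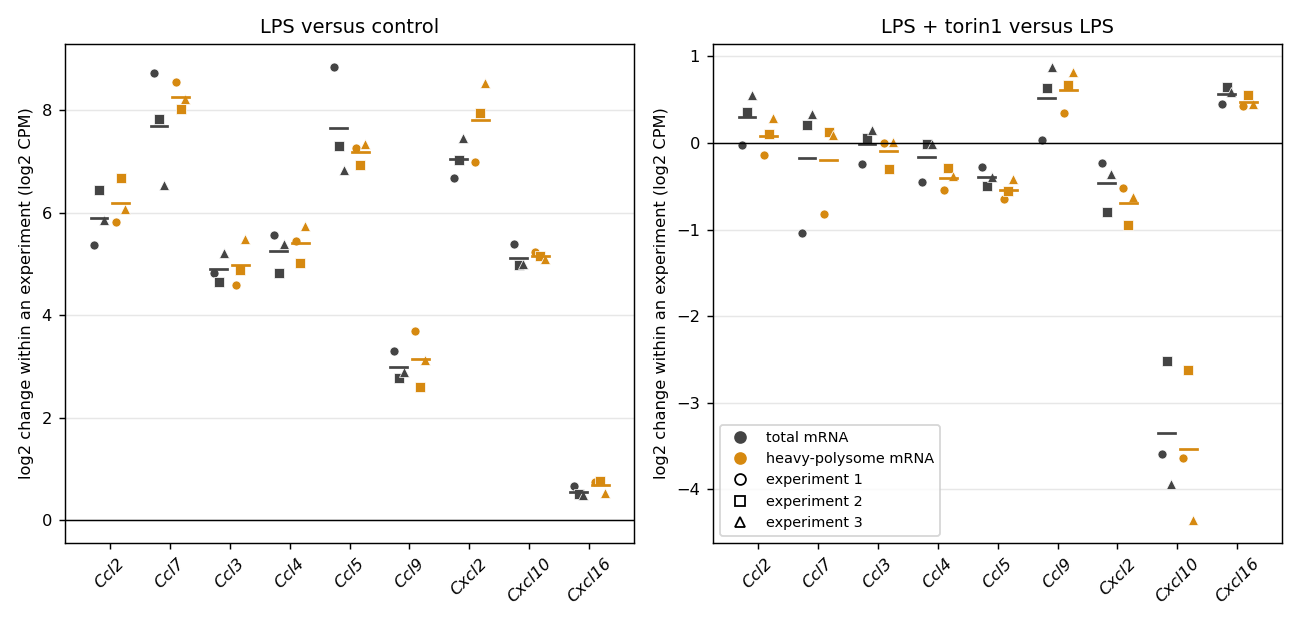
Log2 change in CPM within each experiment for LPS against control (left) and LPS plus torin1 against LPS (right), in total and heavy-polysome mRNA, with a bar at the mean of 3 experiments. With torin1 the changes lie between −1.04 and 0.88 for every gene except Cxcl10, which was at −2.52 or lower in each experiment.

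Ccl2 and Ccl7, the neighbouring ligands of CCR2 that bring monocytes from the blood into tissue, were low in control cells and rose steeply. Ccl2 stood in total mRNA at 22.6, 16.2 and 16.6 CPM in control, 935, 1414 and 967 CPM with LPS and 922, 1816 and 1422 CPM with LPS plus torin1 (experiments 1, 2 and 3). In polysome mRNA the values were 29.04, 22.1 and 23.7 CPM, 1649.9, 2264 and 1587 CPM and 1498, 2432 and 1939 CPM. All LPS libraries were far above control, and the groups with and without torin1 overlapped. The log2 fold change with LPS (± standard error) was 5.90 ± 0.31 in total mRNA (adjusted p = 5.2e-07) and 6.20 ± 0.28 in polysome mRNA (adjusted p = 5.9e-07). Torin1 gave 0.33 ± 0.25 and 0.12 ± 0.22, neither of which was called (adjusted p = 0.353 and 0.763). The polysome value ran from 0.045 to 0.21 over the alternatives. Without experiment 1 the total mRNA value was 0.44 and was called higher, and the adjusted p over all alternatives ran from 0.176 to 0.726.

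Ccl7 was close to the detection limit in control cells, with 8, 18 and 21 counts in total mRNA and 27, 32 and 23 in polysome mRNA. With LPS it reached 108, 95.9 and 59.0 CPM in total and 237, 192 and 133 CPM in polysome mRNA. With LPS plus torin1 it stood at 52.6, 110.7 and 74.1 CPM and 134, 209.5 and 142 CPM. Experiment 1 was the highest with LPS alone and the lowest with torin1, and the groups overlapped. Its rise with LPS was the largest of the list, 7.68 ± 0.43 in total mRNA (rank 10 of 11243 genes, adjusted p = 8.5e-07) and 8.31 ± 0.36 in polysome mRNA (rank 5, adjusted p = 5.9e-07). The size of such a fold rests on the few control counts. With torin1 the changes within experiments were −1.04, 0.21 and 0.33 in total mRNA, and the fold changes of −0.15 and −0.18 were not called (adjusted p = 0.731 and 0.666). Their direction turned without experiment 1, and they ran from −0.40 to 0.25 and from −0.40 to 0.14 over the alternatives.

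Ccl3 and Ccl4 encode macrophage inflammatory proteins, which draw monocytes, macrophages and T cells. Ccl3 was abundant at rest and stood in total mRNA at 259, 338 and 186 CPM in control, 7352, 8535 and 6865 CPM with LPS and 6207, 8869 and 7610.4 CPM with LPS plus torin1. Polysome libraries held 322, 407 and 229 CPM, 7731, 12098 and 10204 CPM and 7731, 9812 and 10319 CPM. Libraries with and without torin1 overlapped in both RNA types. LPS raised Ccl3 by 4.86 ± 0.25 in total mRNA (adjusted p = 4.7e-07) and 4.97 ± 0.29 in polysome mRNA (adjusted p = 2.7e-06) on the log2 scale. Torin1 gave the smallest values of the list, −0.0042 ± 0.21 and −0.085 ± 0.24 (adjusted p = 0.990 and 0.851), with ranges of −0.076 to 0.10 and −0.14 to 0.033 over the alternatives that include both signs.

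Ccl4 stood in total mRNA at 53.7, 85.2 and 50.5 CPM in control, 2534, 2409 and 2126 CPM with LPS and 1854, 2387 and 2116 CPM with LPS plus torin1. In polysome mRNA it was at 97.2, 142 and 77.2 CPM, 4256, 4617 and 4115 CPM and 2925, 3768 and 3155 CPM. With torin1 all 3 polysome libraries lay below all 3 LPS libraries, whereas the total libraries overlapped. The rise with LPS was 5.22 ± 0.23 in total (adjusted p = 2.5e-07) and 5.36 ± 0.27 in polysome mRNA (adjusted p = 8.6e-07). The torin1 fold changes of −0.15 ± 0.19 and −0.37 ± 0.22 were not called (adjusted p = 0.584 and 0.286). The total mRNA value ran from −0.23 to −0.012 over the alternatives. The polysome value was called lower without experiment 2 (−0.44), with the experiment as a block (−0.38) and with only the compared groups in the model (−0.37), and its adjusted p over all alternatives ran from 0.0944 to 0.678.

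Ccl5, which draws T cells and monocytes, was nearly silent in control cells, with 7, 30 and 24 counts in total and 26, 50 and 21 in polysome mRNA. LPS brought it to 104.6, 109 and 81.6 CPM in total and 93.6, 140.4 and 66.4 CPM in polysome mRNA. With torin1 it stood at 86.4, 77.3 and 61.95 CPM and 59.8, 95.5 and 49.8 CPM. In each experiment the library with torin1 was below that with LPS alone, in both RNA types, although the groups overlapped. The rise with LPS was 7.49 ± 0.30 in total (adjusted p = 2.0e-07) and 7.16 ± 0.49 in polysome mRNA (adjusted p = 5.6e-06). With torin1 Ccl5 fell by 0.39 ± 0.21 in total mRNA (adjusted p = 0.184). The polysome fold change was −0.53 ± 0.36 (adjusted p = 0.358) and was not called, although it was called lower without experiment 2 (−0.52) and with the experiment as a block (−0.51). The total mRNA call was lost without experiment 2 (−0.33), without experiment 3 (−0.39) and with library totals (−0.32), with an adjusted p from 0.0947 to 0.433 over the alternatives.

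Ccl9, a CCR1 ligand made by mouse myeloid cells, was the CC member with the smallest rise and 1 of 2 members that were higher with torin1. In total mRNA it stood at 679, 585 and 454 CPM in control, 6667, 3997 and 3384 CPM with LPS and 6847, 6226 and 6230.0 CPM with LPS plus torin1. Polysome libraries held 883, 945 and 674 CPM, 11477, 5691 and 5851 CPM and 14565, 9036 and 10306 CPM. Experiment 1 was far above the others with LPS alone, so that the groups with and without torin1 overlapped, although torin1 was the higher of each pair. LPS raised it by 3.03 ± 0.25 in total (adjusted p = 9.4e-06) and 3.20 ± 0.32 in polysome mRNA (adjusted p = 4.4e-05). Torin1 raised it further by 0.46 ± 0.23 (adjusted p = 0.170) and 0.58 ± 0.29 (adjusted p = 0.207). These calls were lost without experiment 3 (0.29 in total and 0.49 in polysome mRNA), in total mRNA also without experiment 2 (0.38), and in polysome mRNA with only the compared groups in the model (0.59). Without experiment 1 the total mRNA value was 0.75 and was called. Over the alternatives the adjusted p ran from 0.0267 to 0.489 in total mRNA and reached 0.570 in polysome mRNA.

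Cxcl2, the neutrophil attractant that acts through CXCR2, stood in total mRNA at 15.8, 18.6 and 9.20 CPM in control, 1617, 2427 and 1611 CPM with LPS and 1372, 1392 and 1256 CPM with LPS plus torin1. In polysome mRNA it was at 15.8, 16.8 and 6.08 CPM, 2008, 4123 and 2251 CPM and 1397, 2142 and 1460.5 CPM. Experiment 2 was the highest with LPS alone, and torin1 libraries were below LPS libraries in total mRNA without overlap, while the polysome groups overlapped. LPS raised Cxcl2 by 7.01 ± 0.31 in total (adjusted p = 2.5e-07) and 7.76 ± 0.52 in polysome mRNA (adjusted p = 5.2e-06). With torin1 it fell by 0.49 ± 0.24 in total (adjusted p = 0.143) and fell by 0.72 ± 0.39 in polysome mRNA (adjusted p = 0.239). The total mRNA call was lost without experiment 2 (−0.30). The polysome call was lost whichever experiment was left out (−0.80, −0.55 and −0.75 without experiments 1, 2 and 3) and with library totals (−0.66), with an adjusted p of up to 0.470, and in total mRNA it ran from 0.0473 to 0.391 over the alternatives.

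Cxcl10, the interferon-inducible ligand of CXCR3 that draws activated T cells, was the member that torin1 changed most. In total mRNA it stood at 20.1, 42.9 and 31.7 CPM in control, 847, 1347 and 1015 CPM with LPS and 70.3, 235 and 66.2 CPM with LPS plus torin1. Polysome libraries held 39.96, 63.0 and 52.0 CPM, 1495, 2235 and 1793 CPM and 120.4, 363 and 87.7 CPM. The 3 groups did not overlap in either RNA type, and experiment 2 was the highest in each of them. LPS raised Cxcl10 by 5.08 ± 0.54 in total (adjusted p = 4.0e-05) and 5.16 ± 0.53 in polysome mRNA (adjusted p = 5.9e-05). With torin1 it fell by 3.11 ± 0.49 in total (adjusted p = 0.00158) and fell by 3.24 ± 0.49 in polysome mRNA (adjusted p = 0.00267), and was lower in 3 of 3 experiments. Cxcl10 lies inside Art3 on the other strand and shares 133 exon bases with it. Art3 had 5, 8 and 4 counts in control, 26, 57 and 42 with LPS and 6, 18 and 4 with LPS plus torin1 in total mRNA, against 23798, 44796 and 32829 counts of Cxcl10 with LPS. Reads of the shared bases cannot be told apart without the strand.

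Cxcl16, the transmembrane chemokine that binds CXCR6 and also takes up oxidized lipoprotein as a scavenger receptor, was expressed at rest and rose least. In total mRNA it stood at 137, 108 and 138 CPM in control, 218, 152 and 194 CPM with LPS and 298, 239 and 292 CPM with LPS plus torin1. In polysome mRNA it was at 249.6, 166 and 232 CPM, 415, 282 and 334 CPM and 558, 415 and 455 CPM. In total mRNA the 3 groups did not overlap, and in polysome mRNA the lowest torin1 library lay just under the highest LPS library. LPS raised it by 0.56 ± 0.16 in total (adjusted p = 0.0142) and 0.67 ± 0.20 in polysome mRNA (adjusted p = 0.0281), ranks 1906 and 1604 of 11243 genes. With library totals the values were 0.32 in polysome mRNA, called, and 0.19 in total mRNA, not called, and the adjusted p in total mRNA ran from 2.8e-04 to 0.323 over the alternatives. Torin1 raised it further by 0.56 ± 0.16 (adjusted p = 0.0235) and 0.49 ± 0.20 (adjusted p = 0.135). It was higher with torin1 in 3 of 3 experiments in both RNA types. The polysome call was lost without experiment 1 (0.53) and without experiment 3 (0.51), with an adjusted p of up to 0.468 among them. Zmynd15 shares 552 exon bases with Cxcl16 on the other strand and had 251, 216 and 226 counts in control, 244, 249 and 332 with LPS and 656, 440 and 449 with LPS plus torin1 in total mRNA. Cxcl16 had 6120, 5072 and 6269 counts with LPS and 9047, 7090 and 8369 with LPS plus torin1, and the part of shared reads in its rise was not tested.

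The rise over control that remained with torin1, as a share of the rise with LPS alone, puts these values on a common scale. In total mRNA it was 8.10% ± 5.88 for Cxcl10 (mean ± SD, n = 3), 73.2% ± 14.4 for Cxcl2 and 76.2% ± 6.07 for Ccl5. Ccl4, Ccl7 and Ccl3 lay around the full rise, at 90.4% ± 15.4, 96.6% ± 42.0 and 99.7% ± 14.2. The means of Ccl2 and Ccl9 lay above it, at 125.1% ± 24.8 and 155% ± 47.9. Ccl2 was at 98.6% in experiment 1, and its torin1 change was not called. For Ccl7 the experiments gave 48.5%, 116% and 126%, so its mean rests on values far apart. In polysome mRNA the shares were 7.13% ± 6.05 for Cxcl10, 61.97% ± 9.12 for Cxcl2, 68.7% ± 5.63 for Ccl5, 75.1% ± 6.58 for Ccl4 and 162% ± 29.4 for Ccl9. Ccl7, Ccl3 and Ccl2 stood at 90.8% ± 29.8, 93.9% ± 11.6 and 106.9% ± 16.0 there. Cxcl10 was below every other member in every experiment. For Cxcl16, whose rise with LPS was small, the share was 256% ± 49.8 in total and 206% ± 17.5 in polysome mRNA.

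**Figure D3:**
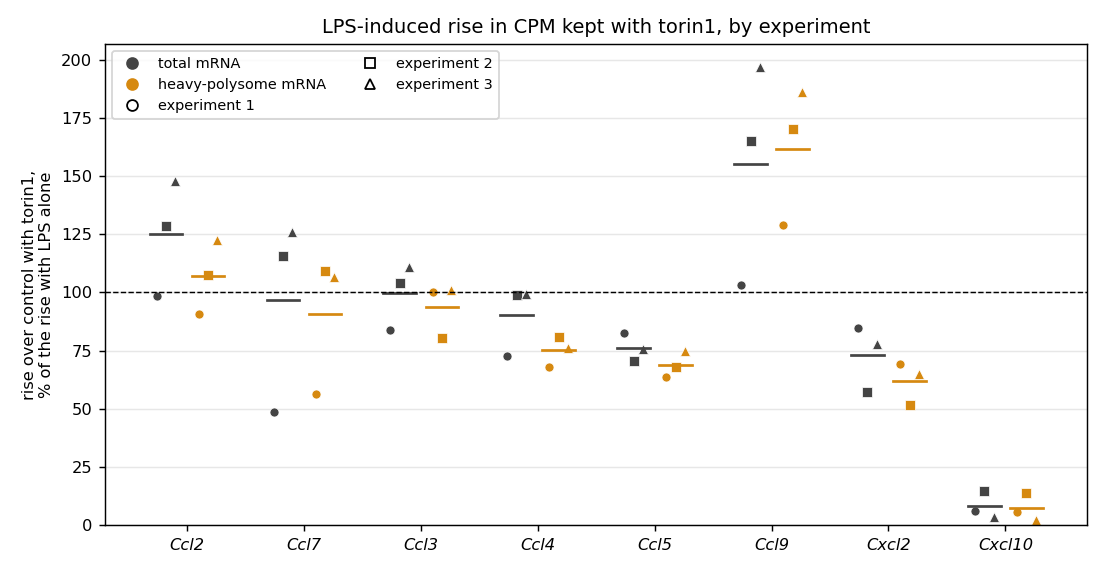
Rise in CPM over control with LPS plus torin1 as a percentage of the rise with LPS alone in the same experiment, for total and heavy-polysome mRNA, with a bar at the mean of 3 experiments and a dashed line at 100%. Cxcl10 lies between 2.05% and 14.7%, and no other gene plotted goes under 48.5%; Cxcl16 (mean 256% in total mRNA) is not plotted.

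Cells given LPS plus torin1 still had more of every member than control cells. All 9 were called higher in total and all 9 in polysome mRNA, where 33.1% and 28.5% of all genes were. The range was from 1.11 ± 0.16 for Cxcl16 to 7.53 ± 0.43 for Ccl7 in total mRNA and from 1.16 ± 0.21 to 8.13 ± 0.36 for the same genes in polysome mRNA. Cxcl10 remained above control by 1.97 ± 0.47 in total (adjusted p = 0.00597) and 1.92 ± 0.46 in polysome mRNA (adjusted p = 0.00846). Without experiment 2 the polysome value was 1.19, still called. With library totals the median of all genes moved by −0.30 in total and −0.29 in polysome mRNA in this comparison, and higher calls made up 26.4% and 27.0% of all calls in place of 49.6% and 48.9%. All 9 members were called higher on that scale too.

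Whether chemokine mRNAs moved on or off heavy polysomes beyond their change in total mRNA was asked by an edgeR test of the difference between the polysome and total changes, with each lysate as a block. No member passed for LPS against control, where 0% of all genes were called higher and 0% lower, and none passed for LPS plus torin1 against LPS, where 0% were called higher and 0.222% lower. DESeq2 and an analysis of partial variance, a regression of polysome on total mRNA, also called no member in either comparison, although DESeq2 gave Ccl5 no adjusted p for torin1. At an unadjusted p under 0.05 there was 1 of 9 members for LPS, Cxcl2, and 0 of 9 for torin1, against 164 (1.46%) and 303 (2.70%) of all genes. In this fit the difference between the polysome and the total log2 change was above 0 for 8 of 9 members with LPS (median 0.14, all genes 0.0037) and for 1 of 9 with torin1 (median −0.15, all genes −0.026). The share of all genes above 0 is not given here. The members come from the same lysates and move together, so these counts are a description only. Of the members, Cxcl2 had the largest value, 0.76 ± 0.20 with LPS (adjusted p = 1.00). Its polysome to total ratio (log2) was −0.0014, −0.15 and −0.60 in control, 0.31, 0.76 and 0.48 with LPS and 0.026, 0.62 and 0.22 with LPS plus torin1. The 3 LPS ratios lay above the 3 control ratios. Over the edgeR and DESeq2 alternatives the difference for Cxcl2 ran from 0.62 to 0.97. The analysis of partial variance gives another quantity, the polysome change less the total change times a slope fitted within treatments. There Cxcl2 was at −3.18, Ccl7 at 6.40 and Ccl5 at 5.30. With total changes this large, these values hang on the fitted slope, so the sign and place of Cxcl2 depend on the quantity taken. In edgeR, Ccl7 and Ccl2 followed at 0.63 ± 0.34 and 0.30 ± 0.14, and the value of Ccl7 rests on low control counts and was 0.051 without experiment 3. Ccl5 was at −0.42 ± 0.42 in edgeR, so its sign also depends on the quantity taken. For Cxcl10 the differences were 0.04 ± 0.15 with LPS and −0.19 ± 0.15 with torin1, small beside its changes in either RNA type (−0.031 to 0.40 and −0.43 to −0.073 over the alternatives). A missed threshold does not show that the changes in total and polysome mRNA were equal.

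**Figure D4:**
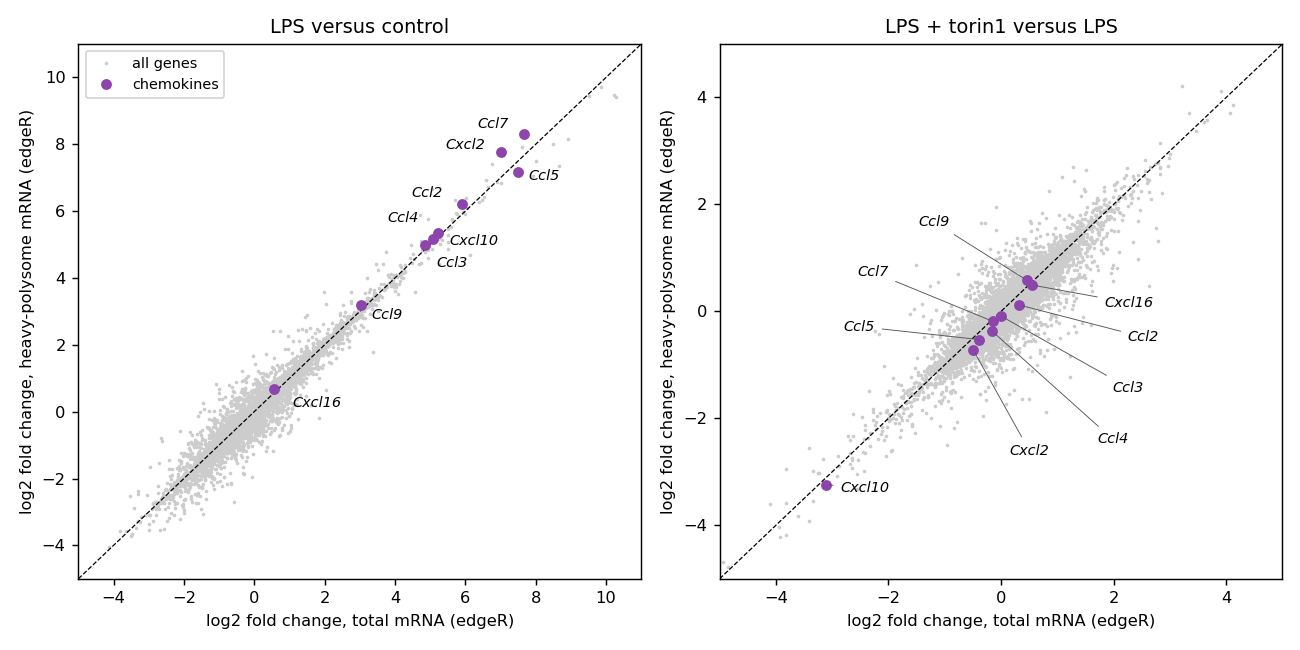
Log2 fold change in heavy-polysome mRNA (y axis) against that in total mRNA (x axis), both from edgeR, for LPS against control (left) and LPS plus torin1 against LPS (right), over all 11243 genes (grey) and the 9 chemokines (purple), with a dashed line where both are equal. Of the 9 chemokines, Cxcl2 lies farthest above the line with LPS (7.01 in total, 7.76 in polysome mRNA, as an uncalled difference), and Cxcl10 lies near it in both plots.

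Per kilobase of exon, levels can be set roughly between genes. Exon length was the union over all annotated transcripts. For Cxcl2 (2068 bases) and Cxcl10 (2252 bases) this union was the whole gene, introns included, whereas that of Ccl2 was 1138 bases. This can lower the values of Cxcl2 and Cxcl10, so the order depends on the annotation. Ccl3 was the most abundant member in control total mRNA, at 341 ± 99.6 CPM per kilobase (mean ± SD, n = 3), followed by Ccl9 at 188 ± 37.1, Ccl4 at 95.6 ± 29.1 and Cxcl16 at 42.3 ± 5.75. Ccl2 (16.2 ± 3.18), Cxcl10 (14.0 ± 5.06) and Cxcl2 (7.04 ± 2.34) came next, and Ccl5 and Ccl7 were last at 0.555 ± 0.289 and 0.528 ± 0.233. With LPS the order in CPM per kilobase was Ccl3 (9901 ± 1121), Ccl4 (3570.2 ± 316), Ccl9 (1538 ± 573), Ccl2 (971 ± 235), Cxcl2 (911 ± 227), Cxcl10 (475 ± 112.8), Ccl7 (109.5 ± 32.0), Ccl5 (103 ± 15.5) and Cxcl16 (62.3 ± 10.96). In control cells the libraries of Cxcl10 overlapped those of Ccl2 and of Cxcl2, and those of Ccl5 and Ccl7 overlapped. With LPS, the libraries of Ccl9, Ccl2 and Cxcl2 overlapped each other, as did those of Ccl7 and Ccl5. Cxcl16 went from place 4 to place 9, with a rise of its own that the other members exceeded.

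Across the 18 libraries, 7 members followed each other closely, with Pearson correlations of log2 CPM from 0.931 (Ccl5 and Ccl9) to 0.994 (Ccl3 and Cxcl2). Cxcl10 correlated with these at 0.612 to 0.773 and Cxcl16 at 0.598 to 0.807, and Cxcl10 and Cxcl16 with each other at 0.302. These are descriptions over libraries that share treatments, and all 7 share the jump with LPS. The genes outside the list most like each member were Odc1 (0.994) and Plagl2 (0.991) for Ccl2, Lcp2 (0.993) and Il1rn (0.992) for Ccl3, Slc15a3 (0.992) and Tmem106a (0.991) for Ccl4, and Slc15a3 (0.992) and Csf3 (0.992) for Ccl5. For Ccl7 they were Plagl2 (0.994) and Slc15a3 (0.993), for Ccl9 Bcl2a1d (0.991) and Maff (0.989), and for Cxcl2 Il1rn (0.987) and Slc15a3 (0.986). Cxcl10 was closest to Fcgr4 (0.982) and Map2k1 (0.978), and Cxcl16 to Tnpo2 (0.956) and Alg9 (0.947). With torin1, Fcgr4, an Fc receptor, was at −2.42 in total mRNA (log2, adjusted p = 0.00203) and Map2k1, a MAP kinase kinase, at −0.78 (adjusted p = 0.00444), both called lower. Tnpo2 (0.20) and Alg9 (0.24) were called higher (adjusted p = 0.214 and 0.0803). These genes were picked over the same libraries, so sharing a member's direction is no independent support. The other 9 of these genes, Odc1, Plagl2, Lcp2, Il1rn, Slc15a3, Tmem106a, Csf3, Bcl2a1d and Maff, were not called (adjusted p = 0.274 to 0.874).

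Of 27 other chemokine ligands, 5 were in the table, and 2 of them rose with LPS in total mRNA, near the 32.2% of all genes that did. Cxcl11, which like Cxcl10 binds CXCR3, rose by 4.88 ± 0.43 (adjusted p = 1.3e-05) and fell by 3.95 ± 0.41 with torin1 (adjusted p = 2.1e-04). Ccl6, the neighbour of Ccl9 in the cluster, rose by 3.31 ± 0.33 (adjusted p = 2.6e-05) and by a further 1.43 ± 0.28 with torin1 (adjusted p = 0.00458). With torin1, Cxcl11 thus moved in the direction of Cxcl10, and Ccl6 in that of Ccl9. Cxcl14 fell by 2.42 ± 0.87 with torin1 (adjusted p = 0.0608) without a call for LPS (−0.74). Ccl25 and Pf4 were not called in total mRNA, at 0.23 and 0.52 with LPS and −0.27 and −0.53 with torin1. In polysome mRNA 2 of 5 rose with LPS (26.4% of all genes), and 1 rose and 3 fell with torin1 (20.3% and 18.2% of all genes).

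Of 22 chemokine receptors 9 were in the table, and all 9 were called with LPS in both RNA types, 5 higher and 4 lower. Of all genes, 32.2% were higher and 34.3% lower in total and 26.4% and 28.7% in polysome mRNA. Ccr1, a receptor for Ccl3, Ccl5 and Ccl9, rose by 5.76 ± 0.39 in total mRNA (adjusted p = 2.7e-06) and fell by 1.45 with torin1 (adjusted p = 0.00661). Ccr2, the receptor for Ccl2 and Ccl7, rose by 1.41 ± 0.37 (adjusted p = 0.0100) and fell by 1.16 with torin1 (adjusted p = 0.0384). Ccrl2, an atypical receptor that binds chemerin, rose by 5.59 ± 0.50 with LPS and by 0.93 with torin1 (adjusted p = 1.4e-05 and 0.101). Xcr1 rose by 3.67 and Cxcr5 by 0.90 with LPS, and they fell by 1.59 and 0.37 with torin1. Among the receptors that LPS lowered were Cx3cr1, the fractalkine receptor of resident macrophages (−1.01 ± 0.19), and Cxcr4, the receptor that retains cells in bone marrow (−2.36 ± 0.77). With torin1 these rose by 0.67 and 3.33 (adjusted p = 0.0223 and 0.00844). Cxcr4 was close to the detection limit in total mRNA, with 36, 34 and 29 counts in control and 9, 6 and 1 with LPS. With LPS plus torin1 it had 54, 13 and 89 counts, so its fold changes rest on few and uneven counts. Ccr10 (−1.09) and Cxcr3 (−1.76) were also lower with LPS, where Cxcr3 had only 1, 12 and 45 counts in total mRNA. With torin1 4 receptors were higher and 4 lower in total mRNA, and 3 higher and 4 lower in polysome mRNA, where of all genes 27.3% and 26.4%, and 20.3% and 18.2%, were called. Cxcr2 and Cxcr6, the receptors for Cxcl2 and Cxcl16, were not in the table.

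Downstream of the receptors, 10 of 24 measured genes of G protein, arrestin and motility signalling rose with LPS in total mRNA and 4 fell (median 0.14), and with torin1 4 rose and 7 fell. Over all genes 32.2% rose and 34.3% fell with LPS and 27.3% rose and 26.4% fell with torin1. Whether this list differed from all genes was not tested. Rgs16, which ends G protein signals, rose by 3.12 ± 0.61 and fell by 3.34 with torin1 (adjusted p = 0.00198 and 0.00365), and Arrb1, an arrestin, fell by 1.96 with LPS. Of 7 measured proteases that cut or shed chemokines, 4 rose and 1 fell with LPS. The matrix metalloproteases Mmp14 and Mmp9 rose by 7.92 ± 0.33 and 6.49 ± 0.60, and Adam10, which sheds Cxcl16 from the cell surface, fell by 0.50 (adjusted p = 0.0299). With torin1 3 of these proteases rose, Mmp14 by 0.88 (adjusted p = 0.0104), and 2 fell, carboxypeptidase Cpd among them (−0.45, adjusted p = 0.0151).

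Of the regulators upstream of these genes, 13 of 21 measured LPS receptor and adaptor genes rose with LPS in total mRNA and 4 fell (median 0.31), and with torin1 6 rose and 6 fell. The shares of all genes were 32.2% and 34.3% with LPS and 27.3% and 26.4% with torin1, so the torin1 count is at the background. Ikbke and Irak3 rose by 2.76 ± 0.14 and 2.24 ± 0.16, and the adaptor Ticam1 rose by 1.72 and fell by 0.56 with torin1 (adjusted p = 0.0107). Of 15 NF-kB subunits and inhibitors 13 rose and 1 fell with LPS (median 1.75), and 5 rose and 7 fell with torin1 (median −0.32). The share that rose with LPS and both shares with torin1 were above those of all genes, a difference that was not tested. At an FDR of 0.05, 4 of the 15 were higher and 4 lower with torin1, against 1759 and 1520 of 11243 genes. The NF-kB cofactor Nfkbiz rose by 4.93 ± 0.20 and fell by 1.05 with torin1 (adjusted p = 0.00180), whereas the inhibitor Nfkbia, up by 2.50 ± 0.13, was at −0.0034 with torin1 (adjusted p = 0.987). Of 16 measured genes of the interferon arm 14 rose and 1 fell with LPS (median 2.67), and with torin1 none rose and 13 fell (median −0.94; 26.4% of all genes fell), 8 of them at an FDR of 0.05. The interferon-induced antiviral genes Ifit1, Ifit2, Ifit3 and Rsad2 were lower, at −2.00, −1.65, −2.22 and −1.88 with torin1 after rises of 5.28, 4.75, 4.94 and 6.04 with LPS. In polysome mRNA 12 of the 16 fell with torin1 and none rose (18.2% of all genes fell), 4 of them at an FDR of 0.05. Cxcl10 and Cxcl11, at −3.11 and −3.95, moved the same way as these genes and further than any of the 16. Of 13 genes of AU-rich element decay, which limits the life of many cytokine mRNAs, 4 rose and 4 fell with LPS, near the shares of all genes, and 2 rose and 5 fell with torin1. Zfp36, a decay factor, rose by 2.82 ± 0.37 with LPS and fell by 0.74 with torin1 (adjusted p = 0.1397), and Zc3h12a, a ribonuclease, rose by 3.30 ± 0.19.

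**Figure D5:**
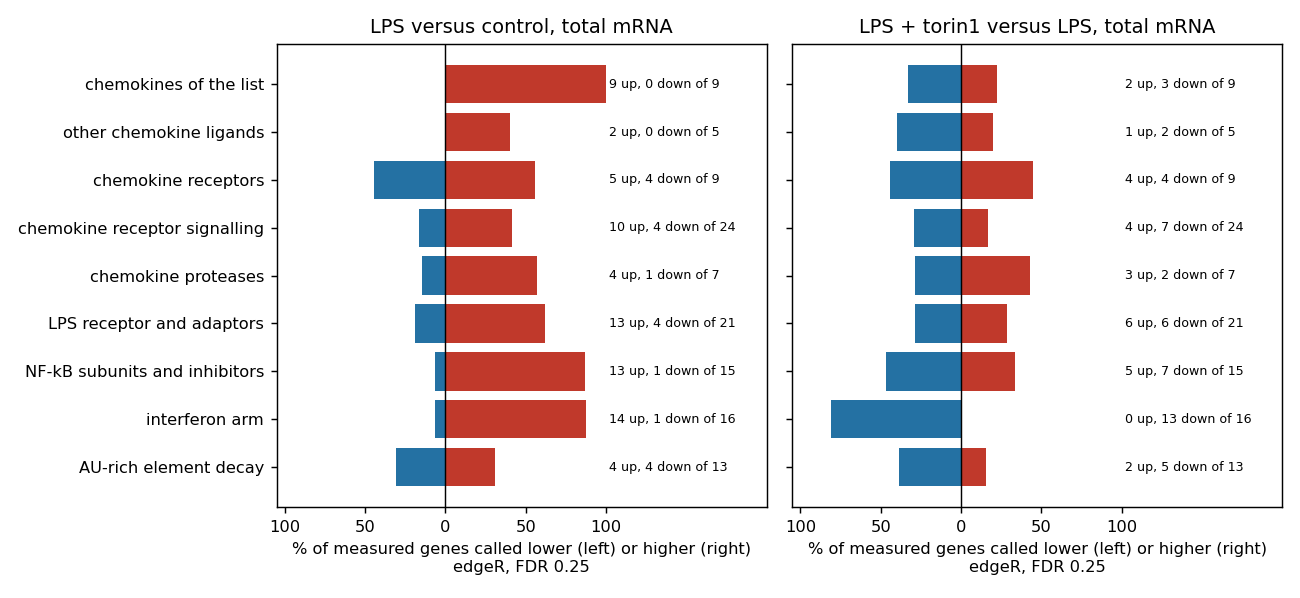
Share of the measured genes of each list called higher (right, red) or lower (left, blue) by edgeR at an FDR of 0.25 in total mRNA, for LPS against control and LPS plus torin1 against LPS, with the counts beside each bar. All 9 chemokines rose with LPS, and with torin1 13 of 16 interferon arm genes fell.

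The calls rest on edgeR quasi-likelihood tests at an FDR of 0.25 with 3 experiments per group, and the smaller torin1 changes depend on which experiments are included. In these libraries torin1 was given only together with LPS, only mRNA was measured, and chemokine protein was not tested.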

How the data were processed

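RNA was sequenced by the authors from RAW264.7 cells as TruSeq stranded libraries, 1 of total and 1 of heavy-polysome mRNA from each of 9 lysates. The deposited values are raw counts per gene made by the authors with a nextflow RNAseq pipeline (version 1.3, Hisat2 to GRCm38, featureCounts with Ensembl annotation). Only protein-coding genes counted at least 1 time in every library were kept, which left 11243 genes. The pipeline was run with its default settings, and the strand setting this implies and the versions of the aligner and annotation are not spelled out in the sources used here.

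Changes within each RNA type were tested in R 4.3.3 with edgeR 4.0.16 quasi-likelihood fits (TMM, 9 libraries, 3 treatments in 1 model, Benjamini-Hochberg over all genes). Calls were made at an FDR of 0.25, the threshold named in the study's methods. Log2 fold changes between RNA types used all 18 libraries with the lysate as block. Total and polysome libraries of a lysate are paired by the methods, and their deviations from group means correlated at 0.389 to 0.649. Same-numbered total libraries correlated at 0.149 to 0.424 and polysome libraries, from the same lysates, at −0.092 to 0.740. Experiments were taken as paired, so a blocked value is given where it changes a call. Levels are TMM CPM, and log2 CPM used a prior count of 0.5. Total libraries held 27.8 M to 38.2 M counts and polysome libraries 34.9 M to 47.7 M. A count of 8, as for Ccl7 in a control library, is therefore imprecise in itself.

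Alternatives were DESeq2 1.42.0, RLE scaling, library totals, a mean count of at least 10, an FDR of 0.05, leaving out each replicate, a replicate block, only the 2 groups compared and, between RNA types, an analysis of partial variance (limma 3.58.1). The code was tested on simulated data.

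The members and lists were chosen with earlier results of these data known. Named genes are all members, every measured gene of the lists of other chemokine ligands and receptors, and up to 4 called genes per other list with the largest LPS change in total mRNA. For each member the 2 genes with the highest Pearson correlation over the 18 libraries are named as a description. Gene positions are from GENCODE vM21 and promoters from RefSeq, and figures were drawn in Python 3.11.15 with matplotlib 3.10.9.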

Additional observations from a re-analysis of the deposited data

How the results depend on the processing

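With 3 experiments in 1 cell line, changes of the smaller members rest on few values, and these libraries include no torin1 without LPS. No call was reversed under any alternative, while values that were not called could change sign, as for Ccl3 and Ccl7 with torin1. All 9 members were called for LPS against control in total and polysome mRNA in every alternative except Cxcl16 in total mRNA with library totals (0.19). Cxcl10 was called lower with torin1 in every alternative, at −3.77 to −2.85 in total and −3.96 to −2.91 in polysome mRNA.

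At an FDR of 0.05 the torin1 comparison with LPS had 2 members in total mRNA (5 at 0.25) and 1 in polysome mRNA (4 at 0.25), and 3279 and 1557 genes of all (6038 and 4322). The polysome comparison of LPS with control then had 3654 genes (6191), and that of LPS plus torin1 with control 3950 (6546). Leaving out 1 replicate at a time gave 2 to 6 members and 3959 to 5385 genes for torin1 in total mRNA, and 1 to 5 members and 1187 to 5182 genes in polysome mRNA. It gave 3901 to 7251 genes for LPS and 4156 to 7627 for LPS plus torin1 against control in polysome mRNA.

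For the polysome change against the total change, edgeR called 0 genes with LPS, DESeq2 called 1, analysis of partial variance 13, and leave-one-out fits 0 to 2. With torin1 edgeR called 25, DESeq2 40, RLE scaling 16, an FDR of 0.05 gave 4, no replicate block (without the lysate) gave 0, and leave-one-out fits 0 to 115. DESeq2 gave no adjusted p for Ccl5 there.

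A replicate block gave 9 members for LPS in both RNA types. With torin1 it gave 5 members in total mRNA (5 without), and 8223 genes for LPS (7471) and 7196 for torin1 (6038). Polysome libraries come from the same lysates, with same-number correlations of −0.092 to 0.740. Of 9 polysome libraries, 7 correlated best with their own number, against 9 of 9 total libraries. In polysome mRNA the block gave 6 members for torin1 (4 without, Ccl4 and Ccl5 added) and changed no other member's call, with 5587 genes (4322) for torin1 and 7062 for LPS (6191).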
